A study of Mus musculus with 27 samples.

Results

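A set of genes that carry out antigen presentation on MHC class II were followed in mouse splenic B cells, 10 of the 54532 genes in the count tables, chosen by name: H2-Aa, H2-Ab1, H2-Eb1, Cd74, Ciita, H2-DMa, H2-DMb1, H2-DMb2, H2-Oa and H2-Ob. B cells from the spleens of wild-type C57BL6 mice, purified by negative selection, were cultured for 3 h and profiled by poly(A) RNA-seq in 27 libraries. In a first experiment there were 5 groups of 4 libraries each: B cells without stimulus, with LPS, with LPS and 1 µM disulfiram (DSF), with IL-4+anti-CD40, or with IL-4+anti-CD40 plus 1 µM DSF, the groups without DSF having received vehicle. In a second experiment each of 7 conditions was 1 library: the same 5 and each stimulus with 1 µM ibrutinib. LPS is a bacterial ligand that activates B cells without T cells, IL-4+anti-CD40 stands in for T-cell help, DSF is a drug against alcohol dependence and ibrutinib inhibits the kinase BTK. The study calls its RNA-seq replicates biologically independent samples, and the labels do not say whether they came from separate mice or pools, so p-values measure the spread between these libraries. Values are RNA levels, and in such bulk samples fewer cells of a type and less RNA per cell cannot be told apart.

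As background, MHC class II molecules are pairs of an alpha and a beta chain that show peptides from endosomes to CD4+ T cells. They are made together with the invariant chain, Cd74, which fills the groove until endosomal proteases cut it down to a short remnant. The chaperone H2-DM then exchanges this remnant for peptide, and H2-DO, present mainly in B cells, restrains H2-DM. Ciita is the coactivator that switches these genes on through proteins bound at the X and Y boxes of their promoters. Resting B cells carry class II constitutively, and it is lost when they become plasma cells.

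H2-Aa and H2-Ab1 encode the alpha and beta chain of I-A, and H2-Eb1 the beta chain of I-E. H2-DMa encodes the alpha chain of H2-DM and H2-DMb1 and H2-DMb2 encode its beta chains, while H2-Oa and H2-Ob encode the chains of H2-DO. In mm10, as the files give positions, these 8 genes lie on chromosome 17 in the order H2-Oa (chr17:34092340-34095234), H2-DMa (chr17:34135182-34139101), H2-DMb2 (chr17:34143307-34151553), H2-DMb1 (chr17:34153072-34160230), H2-Ob (chr17:34238903-34245907), H2-Ab1 (chr17:34263209-34269418), H2-Aa (chr17:34282744-34287827, minus strand) and H2-Eb1 (chr17:34305877-34316199), all but H2-Aa on the plus strand. Ciita lies on chromosome 16 (chr16:10480059-10528418, plus strand). The exons of Ciita overlap those of Dexi by 329 bases, those of H2-DMa overlap Brd2 by 360 bases and those of H2-Oa overlap BC051537 by 321 bases, each on the opposite strand. Whether counting used the strand is not given in the sources used here, so reads in these bases cannot be told apart. H2-DMb1 and H2-DMb2 are related copies: 22.7% of the 50-base words of H2-DMb1 transcripts occur in those of H2-DMb2, and 21.2% the other way, so the split of reads between them is uncertain.

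The promoters of 6 of the 10 genes are shown because the X and Y boxes through which Ciita acts lie there, and because H2-Aa, the H2-DM beta chain genes and the H2-DO genes differed in direction in the comparisons described here. RefSeq promoters (GRCm38.p6) were matched for 7 genes, with Cd74 left out of the search. For H2-DMa the listed start lay 9664 or 12350 bases from the start in the count file, so it is not shown. Each sequence covers 145 to 26 bases before the RefSeq start, 120 bases, in the direction of the gene. Capitals mark matches, on either strand, to the Y box ATTGG, the core of the NF-Y site (read as CCAAT on the other strand), and to an X box core whose fixed letters end in GATG, which binds the RFX complex. The 2 patterns overlapped nowhere in these windows.
H2-Aa (chr17:34287849-34287968, minus strand): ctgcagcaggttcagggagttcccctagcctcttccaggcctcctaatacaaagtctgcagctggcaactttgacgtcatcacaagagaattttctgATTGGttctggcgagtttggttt
H2-Eb1 (chr17:34305722-34305841, plus strand): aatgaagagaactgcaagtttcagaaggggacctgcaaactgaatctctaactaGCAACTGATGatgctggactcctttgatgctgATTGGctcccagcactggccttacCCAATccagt
H2-DMb1 (chr17:34153046-34153165, plus strand): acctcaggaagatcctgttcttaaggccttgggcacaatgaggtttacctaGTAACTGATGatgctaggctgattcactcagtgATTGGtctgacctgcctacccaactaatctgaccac
H2-DMb2 (chr17:34145104-34145223, plus strand): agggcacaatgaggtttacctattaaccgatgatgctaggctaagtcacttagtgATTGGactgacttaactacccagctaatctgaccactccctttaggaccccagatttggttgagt
H2-Oa (chr17:34092234-34092353, plus strand): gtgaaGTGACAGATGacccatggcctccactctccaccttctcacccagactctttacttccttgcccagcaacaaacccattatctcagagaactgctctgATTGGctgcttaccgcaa
H2-Ob (chr17:34238760-34238879, plus strand): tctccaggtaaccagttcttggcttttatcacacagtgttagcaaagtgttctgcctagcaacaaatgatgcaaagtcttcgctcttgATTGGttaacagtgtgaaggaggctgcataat
All 6 held a Y box and 3 of them, H2-Eb1, H2-DMb1 and H2-Oa, a match to the X box core. The search used a fixed pattern, so a gene without a match may still have an X box with other letters. In H2-DMb2 and H2-Ob, GATG stands before the Y box without all the other fixed letters. In H2-Oa the match lay 140 to 131 bases before the start and the Y box 43 to 39. The match and the first Y box lay closer together in H2-Eb1 (91 to 82 and 59 to 55) and H2-DMb1 (94 to 85 and 61 to 57). Among 32851 RefSeq promoters searched over 250 bases before to 50 after the start, 37.4% held the Y box, 2.97% the X box core and 1.21% both, and within the stretch printed here 21.2% held the Y box and 0.28% both. The start used for H2-DMb2 lies 1942 bases from its start in the count file, and those of the other 5 genes within 119 bases. A match is a description of letters and not a measured binding site.

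**Figure D1:**
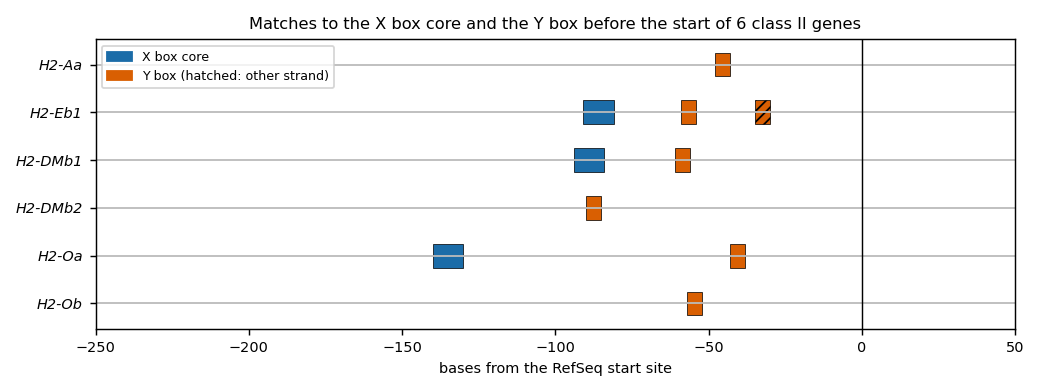
Matches to the X box core (blue) and the Y box (orange, hatched on the other strand) in the promoters of 6 class II genes, plotted by distance in bases from the RefSeq start site (0), over 250 bases before to 50 after it. The first Y box of each gene begins 43 to 90 bases before the start. The matches to the X box core in H2-Eb1, H2-DMb1 and H2-Oa begin 91, 94 and 140 bases before it.

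Total counts per library lay between 17804851 and 23632992 in the first experiment and between 16049295 and 24619776 in the second, and the 10 genes together took 1.28% to 2.24% and 1.71% to 2.50% of them. B cell markers were expressed throughout, with all 10 markers detected in every library of the first experiment, whereas the 8 T cell markers summed to at most 15.2 CPM (counts of a gene relative to all counts of the library, TMM-normalized). The 4 unstimulated libraries fell into pairs: log2 CPM correlated across genes at 0.994 between libraries 1 and 2 and at 0.993 between 3 and 4, but as low as 0.957 across the pairs, and 1931 of 14426 genes (13.4%) differed 2-fold or more. The labels do not explain the pairs, and values of the 10 genes, counts over lists and the named list genes against unstimulated cells are therefore given also without either pair, an alternative added after the data were seen.

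The class II genes were among those that differed between these pairs, and Ciita differed most of the 10. Ciita was at 134, 139.9, 594 and 538 CPM in unstimulated libraries 1 to 4, 4.14-fold higher in the second pair. H2-Oa was at 41.6, 41.8, 155 and 142 CPM, 3.56-fold higher, and the 3 H2-DM genes were 2.15-fold to 2.43-fold higher in the second pair. H2-Ob differed least, at 766, 745, 865 and 941 CPM, and H2-Aa, H2-Ab1, H2-Eb1 and Cd74 were 1.36-fold to 1.55-fold higher. The B cell marker sum moved with them, at 6336 and 6279 CPM in the first pair and 11015 and 10774 CPM in the second, as did the neutrophil marker sum in the opposite direction, from 13.3 CPM in the lowest library to 58.3 CPM in the highest. The erythroid marker sum was at 3.08 and 2.36 CPM in the first pair and 14.0 and 15.9 CPM in the second. Their part in the spread of the class II genes was not tested.

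The levels of the 10 genes differed widely. By the deposited FPKM, which divide by gene length, the invariant chain Cd74 was highest in every group, at 4401 ± 158 FPKM with LPS (SD, n = 4) and 5152 ± 226 FPKM with IL-4+anti-CD40. The I-E beta chain H2-Eb1 came second in every group, at 1827 ± 104 and 2399 ± 82.0 FPKM. Next came the I-A chains, with H2-Ab1 above H2-Aa without DSF (1500 ± 63.7 against 1244 ± 45.6 FPKM with LPS, and 2246 ± 176 against 1651 ± 40.2 FPKM with IL-4+anti-CD40) and below it with DSF (1132 ± 69.5 against 1451 ± 73.0 FPKM, and 1786 ± 51.1 against 1912 ± 53.6 FPKM). The H2-DO beta chain H2-Ob (179 ± 3.97 FPKM with LPS) and H2-DMb2 (120.4 ± 5.71 FPKM) followed, then H2-DMa (41.4 ± 1.08 FPKM) and H2-DMb1 (30.6 ± 3.02 FPKM). The H2-DO alpha chain H2-Oa (23.1 ± 1.42 FPKM) and Ciita (8.93 ± 0.367 FPKM) were lowest with LPS, and under IL-4+anti-CD40 they were lowest in the reverse order, at 22.5 ± 2.14 and 37.7 ± 3.27 FPKM.

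Neighbours in the order by FPKM differed by more than the sum of their SDs throughout the LPS, LPS with DSF and IL-4+anti-CD40 with DSF groups. With IL-4+anti-CD40 alone, H2-Eb1 and H2-Ab1, and H2-DMa and H2-Ob, did not differ beyond their spread. In unstimulated cells, where the libraries split into pairs, the neighbours that differed beyond their spread were Cd74 against H2-Eb1, H2-Aa against H2-DMb2, and H2-Ob against H2-DMa.

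**Figure D2:**
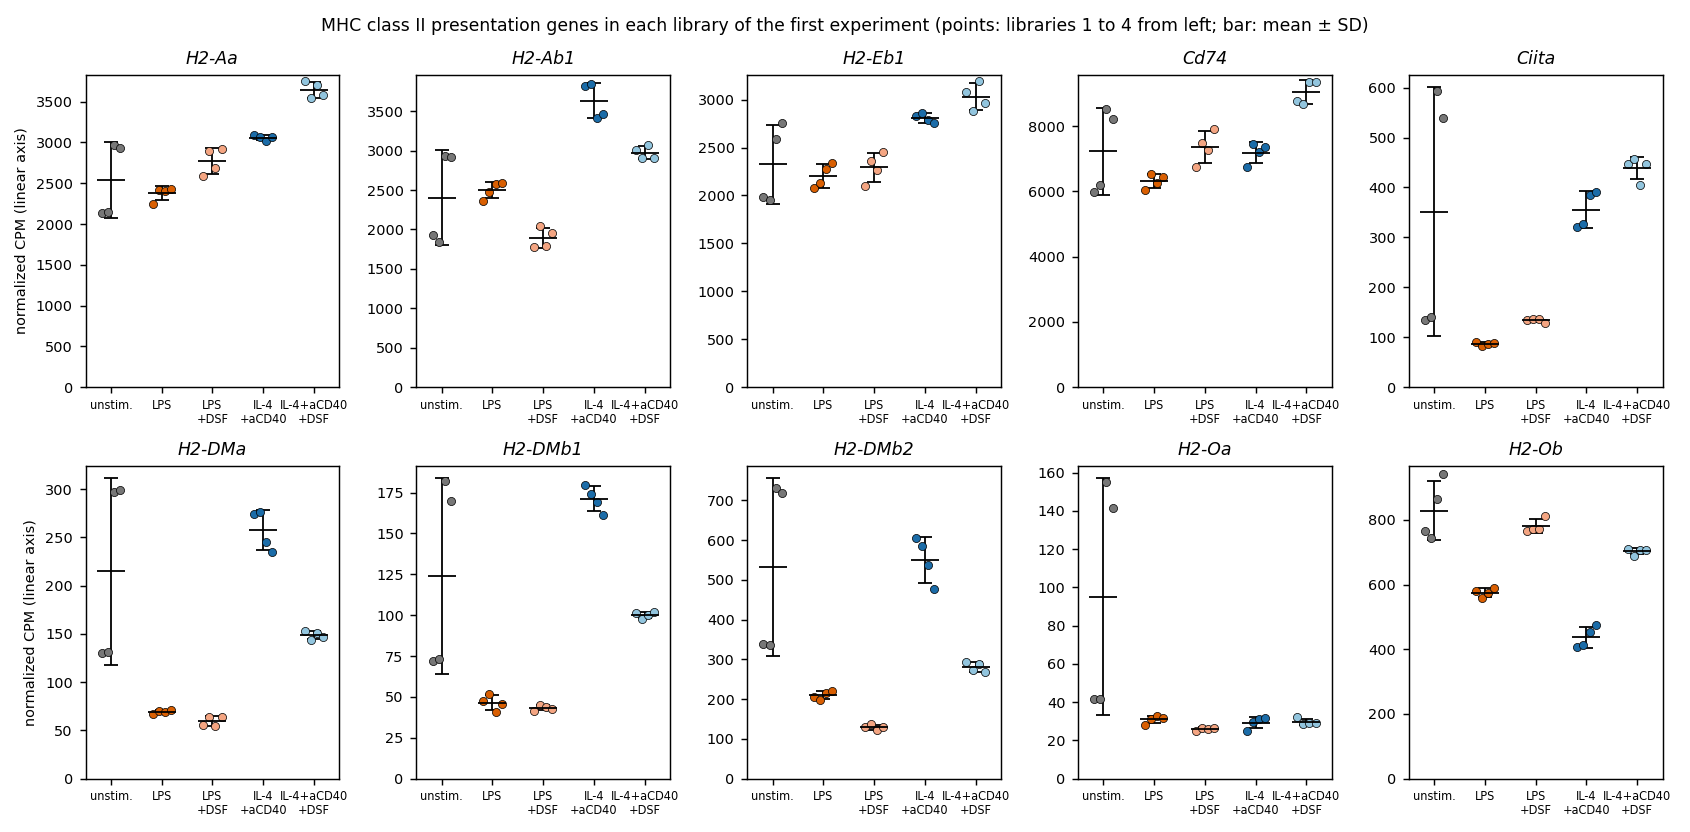
CPM after TMM normalization (linear axes from 0, a scale per gene) of the 10 genes in the 20 libraries of the first experiment, with libraries 1 to 4 from left to right in each group, the mean as a horizontal mark and the SD as a bar. Unstimulated libraries 1 and 2 lie below 3 and 4 for all 10 genes. Ciita, H2-DMa, H2-DMb1 and H2-DMb2 are lower with LPS than with IL-4+anti-CD40.

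LPS against unstimulated cells asks how a T-cell-independent stimulus acts on class II genes within 3 h. Ciita, the 3 H2-DM genes and both H2-DO genes fell, while the I-A and I-E chains and Cd74 did not pass the test. Of the 10 genes, 0 rose and 6 fell (edgeR, adjusted p under 0.05, with the same counts at an unadjusted p under 0.05 and by DESeq2), against 29.5% of all genes that rose, 33.2% that fell and 62.7% called in either direction, so that the share of called genes was near that of all genes. Ciita went from 134, 139.9, 594 and 538 CPM to 89.6, 81.8, 86.4 and 89.4 CPM, the LPS libraries all lying below the unstimulated ones. It was 4.05-fold lower (log2 fold change -2.02 ± 0.50 SE, edgeR adjusted p = 0.0072). H2-DMa, the H2-DM alpha chain, went from 131, 132, 297 and 299.6 CPM to 67.2, 69.8, 68.7 and 71.3 CPM (-1.63 ± 0.30, edgeR adjusted p = 0.0014). The beta chains followed, H2-DMb1 by -1.42 ± 0.32 and H2-DMb2 by -1.34 ± 0.28 on the log2 scale, and H2-Oa by -1.62 ± 0.45. For all 6 genes the groups did not overlap, as for 60.9% of all genes. H2-Ob, the H2-DO beta chain, fell less, from 766, 745, 865 and 941 CPM to 580.4, 558, 575 and 589 CPM (-0.53 ± 0.09). Scaled to total counts in place of TMM, 0 of the 10 genes were higher and 9 lower, with the median of all genes at -0.27 in place of -0.05 and 31.2% in place of 47.1% of all calls higher.

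These falls with LPS were present against either pair of unstimulated libraries, but their size was not the same. The log2 fold change of Ciita was -2.68 without unstimulated libraries 1 and 2 and -0.66 without 3 and 4, and that of H2-Oa -2.24 and -0.43. For H2-DMa, H2-DMb1 and H2-DMb2 the values were -2.08 and -0.92, -1.89 and -0.64, and -1.76 and -0.68. The 6 genes passed the test in both, and 10 and 9 of the 10 genes were called, against 75.8% and 68.0% of all genes. For the abundant genes the choice decided the direction: H2-Aa (-0.10 ± 0.13 with all libraries) was at -0.28 without the first pair and 0.15 without the second, H2-Ab1 (0.06 ± 0.17) at -0.19 and 0.41, H2-Eb1 (-0.07 ± 0.13) at -0.25 and 0.16, and Cd74 (-0.19 ± 0.13) at -0.37 and 0.06. The macrophage marker sum, of 8 genes led by Lyz2, was also lower with LPS, at 121 to 138 CPM against 531 to 663 CPM in unstimulated cells, and its part in these differences was not tested. Dendritic cell markers summed to 56.0 to 61.3 CPM without stimulus and 71.8 to 77.7 CPM with LPS.

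With IL-4+anti-CD40 the pattern was another: H2-Ab1 rose and both H2-DO genes fell, and Ciita and the H2-DM genes did not pass the test. Of the 10 genes, 1 rose and 2 fell, against 62.4% of all genes called, 30.4% higher and 32.0% lower. The I-A beta chain H2-Ab1 went from 1925, 1837, 2931 and 2914 CPM to 3817, 3841, 3416 and 3462 CPM, 1.57-fold higher (0.65 ± 0.17, edgeR adjusted p = 0.0095). H2-Oa was at 24.8, 29.8, 31.0 and 31.5 CPM, 3.14-fold lower than in unstimulated cells (-1.65 ± 0.45, edgeR adjusted p = 0.011). H2-Ob was at 408, 412, 454 and 474 CPM, 1.83-fold lower (-0.87 ± 0.10, edgeR adjusted p = 8.10e-05). The share of called genes was thus below that of all genes. These 3 genes and H2-Aa had groups that did not overlap, 4 of the 10 genes against 60.1% of all genes. The calls on H2-Ab1, H2-Oa and H2-Ob were made against either pair of unstimulated libraries, with H2-Oa at -2.27 without the first pair and -0.49 without the second. Ciita, at 321, 327, 385 and 390.0 CPM, lay between the pairs, and its log2 fold change of 0.07 ± 0.48 became -0.60 (edgeR adjusted p = 1.19e-04) without unstimulated libraries 1 and 2 and 1.40 (edgeR adjusted p = 1.05e-06) without 3 and 4. The same held for H2-DMa (-0.14 and 1.00) and H2-DMb2 (-0.33 and 0.73), so no direction is given for these 3 genes. The number of the 10 genes called was 5 without the first pair and 10 without the second, against 69.6% and 60.1% of all genes. It was also 5 with DESeq2, which added H2-Aa and H2-Eb1 to the genes that rose. The macrophage marker sum was lower with IL-4+anti-CD40, at 167 to 197 CPM against 531 to 663 CPM without stimulus, and the dendritic cell marker sum was higher, at 115 to 129 against 56.0 to 61.3 CPM. The part of both in these values was not tested. Scaled to total counts in place of TMM, 1 of the 10 genes were higher and 2 lower, with the median of all genes at -0.19 in place of -0.04 and 38.2% in place of 48.7% of all calls higher.

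The direct comparison of both stimuli does not use the unstimulated libraries. The IL-4+anti-CD40 libraries also parted into 1 and 2 against 3 and 4, though less. Between 2 libraries, the chi-square of counts per gene was 3.49 and 6.41 within these pairs and 15.6 to 27.2 across them. It was 84.8 to 90.7 across the unstimulated pairs. Comparisons with IL-4+anti-CD40 alone were not run without either of its own pairs. Ciita and the 3 H2-DM genes were lower with LPS than with IL-4+anti-CD40 by far more than the spread between libraries, the I-A and I-E chains and Cd74 were moderately lower, and H2-Ob was higher. Of the 10 genes, 8 were lower and 1 higher with LPS, against 17.3% lower and 22.3% higher of all genes, 39.6% in all. Ciita was at 89.6, 81.8, 86.4 and 89.4 CPM with LPS and 321, 327, 385 and 390.0 CPM with IL-4+anti-CD40, 4.08-fold lower (log2 -2.03 ± 0.07, edgeR adjusted p = 1.32e-11). H2-DMa was at 67.2, 69.8, 68.7 and 71.3 CPM against 274, 277, 246 and 235 CPM, 3.71-fold lower. H2-DMb1 was at 47.4, 51.6, 40.6 and 45.8 CPM against 179.6, 174, 169 and 161 CPM, 3.68-fold lower. For all 3 of these genes the highest LPS library stayed below the lowest IL-4+anti-CD40 library. H2-DMb2 was 2.61-fold lower (-1.39 ± 0.07), from 604, 585, 536 and 476 CPM to 206, 198, 216 and 219.6 CPM. H2-Ab1, H2-Aa, H2-Eb1 and Cd74 were lower by log2 fold changes of -0.53 ± 0.05, -0.36 ± 0.04, -0.34 ± 0.05 and -0.18 ± 0.04. H2-Ob was 1.32-fold higher with LPS (0.40 ± 0.05, edgeR adjusted p = 1.94e-05), while its partner H2-Oa did not pass the test (0.08 ± 0.08, edgeR adjusted p = 0.45). The groups of 9 genes did not overlap, against 39.6% of all genes. Dendritic cell markers summed to 71.8 to 77.7 CPM with LPS and 115 to 129 CPM with IL-4+anti-CD40, and Xcr1, Clec9a, Siglech and Cd209a were at most 3.39 CPM in both. The B cell marker sum was also lower with LPS, at 5508 to 5642 against 7162 to 8682 CPM, as were the macrophage sum (121 to 138 against 167 to 197 CPM) and the plasma cell sum (237 to 253 against 369 to 383 CPM). The part of these markers was not tested. Scaled to total counts in place of TMM, 1 of the 10 genes were higher and 8 lower, with the median of all genes at -0.14 in place of -0.01 and 33.9% in place of 56.3% of all calls higher.

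**Figure D3:**
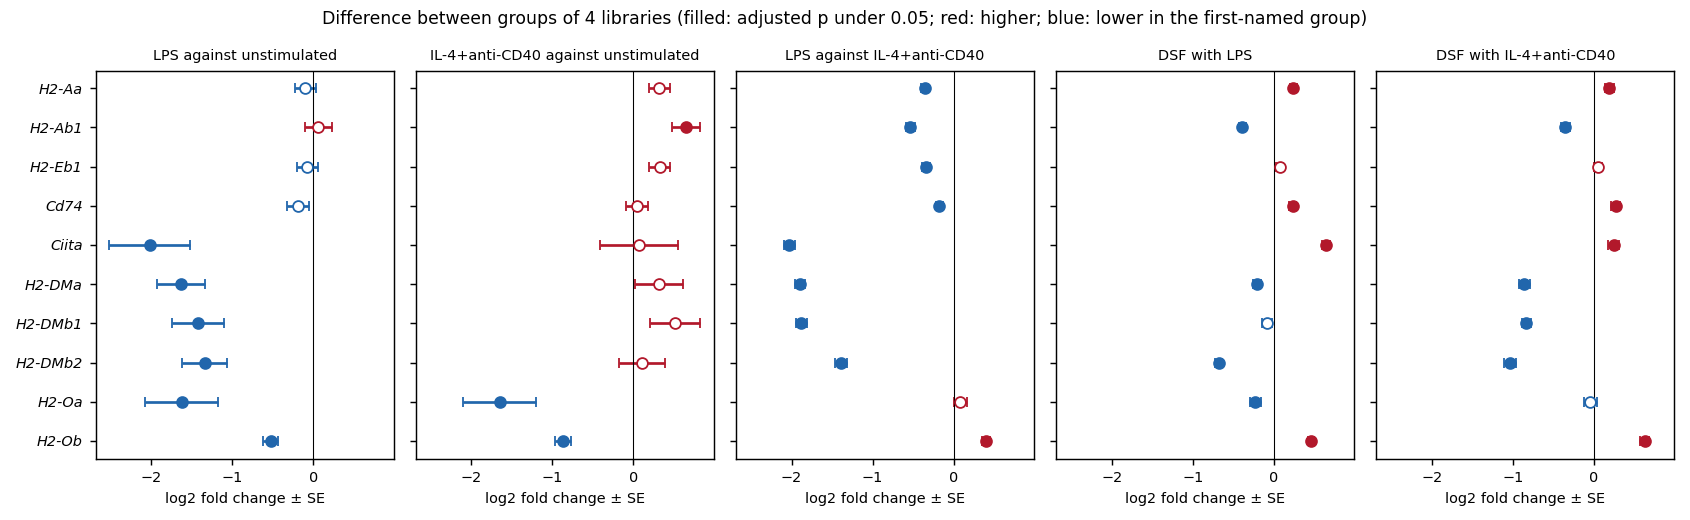
Log2 fold changes with SE (horizontal axis) of the 10 genes in 5 comparisons of 4 against 4 libraries of the first experiment (edgeR), filled where the adjusted p was under 0.05, red where the first-named group was higher and blue where it was lower. The comparisons with unstimulated cells carry the widest bars, and with DSF the I-A chains H2-Aa and H2-Ab1 lie on opposite sides of 0 under both stimuli.

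DSF with LPS was compared with LPS alone to see what the drug changed in stimulated cells. The class II genes did not move together: Ciita, H2-Ob, H2-Aa and Cd74 rose, and H2-DMb2, H2-Ab1, H2-Oa and H2-DMa fell. Thus 4 of the 10 genes were higher and 4 lower, against 71.0% of all genes called, 35.0% higher and 36.1% lower, a share of calls near that of all genes. Ciita rose from 89.6, 81.8, 86.4 and 89.4 CPM with LPS to 135, 136, 137 and 129 CPM with LPS and DSF, 1.56-fold (log2 0.64 ± 0.04, edgeR adjusted p = 3.11e-16). H2-DMb2 fell from 206, 198, 216 and 219.6 CPM to 129, 137, 122 and 131 CPM, 1.60-fold (-0.68 ± 0.04, edgeR adjusted p = 3.75e-17). H2-Ob rose from 580.4, 558, 575 and 589 CPM to 766, 772, 772 and 814 CPM (0.46 ± 0.04). In each of these genes every library with DSF lay on one side of every library without it. The chains of I-A moved in opposite directions, H2-Aa from 2251, 2423, 2409 and 2426 CPM to 2590, 2897, 2692 and 2923 CPM (0.24 ± 0.04, edgeR adjusted p = 5.14e-06). H2-Ab1 went from 2367, 2473, 2581 and 2589 CPM to 1779, 2042, 1793 and 1951 CPM (-0.39 ± 0.04, edgeR adjusted p = 4.62e-10). Cd74 rose from 6046, 6544, 6270 and 6448 CPM to 6757, 7486, 7256 and 7919 CPM (0.23 ± 0.04). H2-DMa and H2-Oa were lower by log2 fold changes of -0.20 ± 0.05 and -0.23 ± 0.07, and H2-DMb1 (-0.09 ± 0.06) and H2-Eb1 (0.07 ± 0.05) did not pass the test. The groups of the 8 called genes did not overlap, against 64.1% of all genes. With all 20 libraries in 1 fit, which takes the spread between the unstimulated pairs into the error, the calls on Ciita (edgeR adjusted p = 0.15), Cd74 (edgeR adjusted p = 0.054), H2-DMa and H2-Oa were lost and those on H2-Aa, H2-Ob, H2-Ab1 and H2-DMb2 were made.

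With IL-4+anti-CD40 the H2-DM genes fell further under DSF. All 3 H2-DM genes and H2-Ab1 fell, and H2-Ob, Cd74, Ciita and H2-Aa rose, again 4 higher and 4 lower of 10, against 61.7% of all genes called, 30.1% higher and 31.6% lower. H2-DMb2 fell from 604, 585, 536 and 476 CPM to 294, 274, 289 and 268 CPM, 2.04-fold (log2 -1.03 ± 0.07, edgeR adjusted p = 1.19e-07). H2-DMa fell from 274, 277, 246 and 235 CPM to 153, 143, 151 and 147 CPM, 1.81-fold (-0.86 ± 0.06). H2-DMb1 fell from 179.6, 174, 169 and 161 CPM to 101, 97.8, 100.1 and 102 CPM, 1.78-fold (-0.83 ± 0.05). The whole H2-DM set was thus lower in every library with DSF. H2-Ob, whose product acts against H2-DM together with H2-Oa, rose from 408, 412, 454 and 474 CPM to 709, 689, 706 and 707 CPM, 1.54-fold (0.63 ± 0.06, edgeR adjusted p = 5.47e-07). H2-Ab1 fell from 3817, 3841, 3416 and 3462 CPM to 3013, 2901, 3072 and 2905 CPM (-0.35 ± 0.06). H2-Aa rose from 3090, 3070, 3013 and 3063 CPM to 3749, 3539, 3705 and 3581 CPM (0.19 ± 0.05), so that the I-A chains again moved apart. Cd74 rose by 0.27 ± 0.05 and Ciita, at 447, 457, 406 and 446 CPM with DSF, by 0.24 ± 0.07 on the log2 scale. H2-Eb1 (0.05 ± 0.05) and H2-Oa (-0.04 ± 0.08) did not pass the test. For 9 genes, the called ones and H2-Eb1, the groups did not overlap, against 57.1% of all genes. With all 20 libraries in 1 fit the call on Ciita was lost (edgeR adjusted p = 0.50).

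The direction of the small changes rests on the scaling. Scaled to total counts instead of TMM, the median of all genes shifted with DSF to -0.21 (LPS) and -0.16 (IL-4+anti-CD40) on the log2 scale, and the calls among the 10 genes became 2 higher and 6 lower under LPS and 2 higher and 4 lower under IL-4+anti-CD40, while the share of higher among all calls went from 49.2% to 34.2% and from 48.8% to 35.7%. H2-Aa then stood at 0.03 and 0.04, Cd74 with LPS at 0.02 and Ciita with IL-4+anti-CD40 at 0.09, none past the test, and H2-Eb1 with LPS at -0.14 (edgeR adjusted p = 0.0044). All these values lie above the shifted median, and the falls of H2-Ab1 and H2-DMb2 and the rise of H2-Ob were called under both scalings. The B cell marker sum was lower with DSF, at 4266 to 4521 against 5508 to 5642 CPM with LPS and 5352 to 5495 against 7162 to 8682 CPM with IL-4+anti-CD40. Dendritic cell markers summed to 118 to 127 against 71.8 to 77.7 CPM with LPS, and to 137 to 145 against 115 to 129 CPM with IL-4+anti-CD40. Zbtb46 and Itgax made up most of each sum, while Xcr1, Clec9a and Siglech were at most 3.39 CPM. With DSF, Itgax and Ccr9 were higher under both stimuli. Zbtb46 was higher under LPS (74.8 to 79.9 against 44.4 to 50.3 CPM) but not under IL-4+anti-CD40 (71.5 to 77.1 against 71.9 to 82.7 CPM). Siglech was lower under both, Flt3 under LPS and Cd209a under IL-4+anti-CD40. The macrophage marker sum was 137 to 142 against 121 to 138 CPM and 207 to 286 against 167 to 197 CPM. The plasma cell marker sum was higher with DSF without overlap, at 343 to 384 against 237 to 253 CPM with LPS and 436 to 459 against 369 to 383 CPM with IL-4+anti-CD40. Its genes did not move together. Prdm1 and Jchain were higher under both stimuli and Xbp1 under LPS, but Sdc1 was lower under LPS (3.08 to 4.16 against 5.33 to 6.89 CPM). Under IL-4+anti-CD40, Sdc1 (3.69 to 4.75 against 3.35 to 4.97 CPM) and Xbp1 (218 to 226 against 217 to 225 CPM) overlapped. The T cell marker sum was 11.4 to 12.9 against 5.25 to 6.36 CPM and 12.3 to 13.5 against 6.46 to 8.49 CPM, and Cd5, which some B cells also carry, made up most of the sum with DSF. The part of these markers in the class II values was not tested.

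The interaction term asks whether DSF acted differently under the stimuli. Among the 10 genes 4 differed, all with a higher DSF effect under LPS, against 8.03% of all genes higher and 15.0% in either direction. The differences of the log2 fold changes, LPS minus IL-4+anti-CD40, were 0.74 ± 0.08 for H2-DMb1 (edgeR adjusted p = 6.48e-07), 0.65 ± 0.09 for H2-DMa (edgeR adjusted p = 6.71e-06), 0.40 ± 0.08 for Ciita (edgeR adjusted p = 0.0012) and 0.35 ± 0.09 for H2-DMb2 (edgeR adjusted p = 0.0090). The falls of the H2-DM genes were thus larger with IL-4+anti-CD40, where these genes started from higher levels, and the rise of Ciita was larger with LPS, where it started from a lower level. For H2-Aa, H2-Ab1, H2-Eb1 and Cd74 the differences lay between -0.04 and 0.04 and did not pass the test, nor did those of H2-Oa (-0.19 ± 0.10) and H2-Ob (-0.17 ± 0.06, edgeR adjusted p = 0.070), the latter called lower by DESeq2. With all 20 libraries in 1 fit, edgeR called 0 of the 10 differences (1 at an unadjusted p under 0.05), with values of 0.67 for H2-DMb1 and 0.32 for Ciita, and 912 genes were called of all. Scaled to total counts in place of TMM, 4 of the 10 genes were higher and 1 lower, with the median of all genes at -0.04 in place of 0.02 and 36.9% in place of 53.5% of all calls higher.

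Ratios of raw counts between partner chains within a library need no scaling between libraries. The ratio of H2-Ab1 to H2-Aa counts was 1.05 ± 0.0230 (SD, n = 4) with LPS and 0.681 ± 0.0183 with LPS and DSF, and 1.19 ± 0.0644 with IL-4+anti-CD40 and 0.816 ± 0.0110 with DSF added. On the log2 scale it differed by -0.63 ± 0.02 SE and -0.54 ± 0.04 SE, and every library with DSF lay below every library without it (exact two-sided permutation test of 4 against 4 libraries, p = 0.0286, the smallest this design can give, 0.044 after adjustment over 20 comparisons). H2-DMb2 to H2-DMb1 fell with DSF by 0.60 and 0.19 on the log2 scale, from 4.58 ± 0.638 to 3.00 ± 0.160 with LPS and from 3.21 ± 0.196 to 2.80 ± 0.123 with IL-4+anti-CD40, again without overlap. H2-Oa to H2-Ob, the chains of H2-DO, fell by 0.68 and 0.67 with the same exact p. In the single libraries of the second experiment this log2 ratio was nearly the same with LPS (-3.55) and LPS with DSF (-3.62). It was -2.99 with IL-4+anti-CD40 and -3.98 with DSF added. H2-DMb1 to H2-DMa, both chains of H2-DM, did not differ past the test with DSF, at 0.13 ± 0.10 and 0.02 ± 0.03 (exact permutation p = 0.23 and 0.49, adjusted 0.29 and 0.54). A ratio shows unequal change of the partners and not which of them moved.

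**Figure D4:**
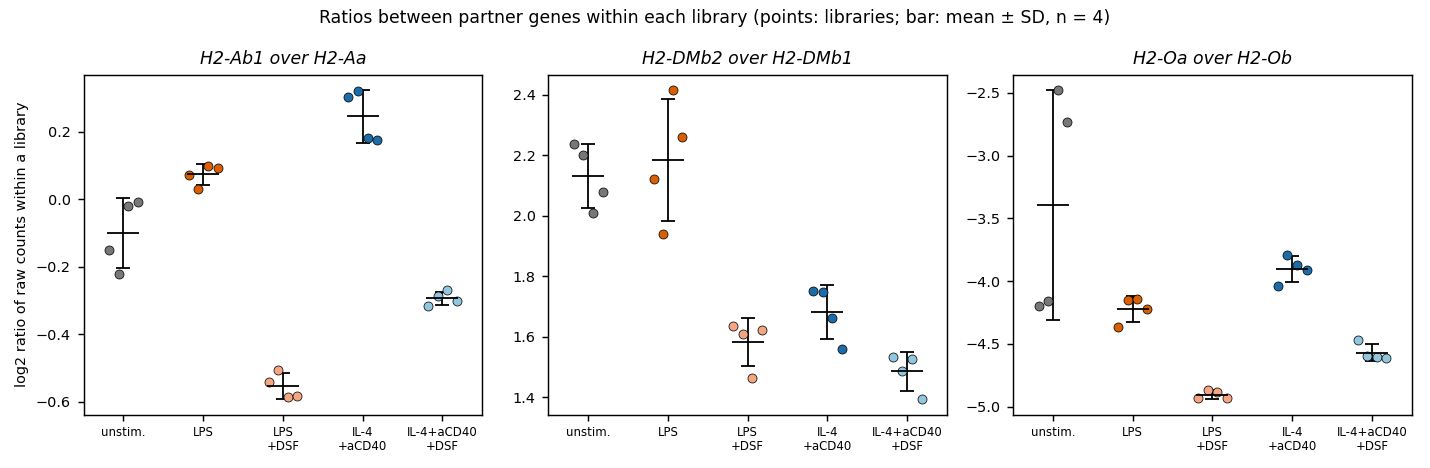
Log2 ratio of raw counts within each library (vertical axes, not from 0) for H2-Ab1 over H2-Aa, H2-DMb2 over H2-DMb1 and H2-Oa over H2-Ob in the 5 groups, with points for libraries 1 to 4, the mean and the SD. In all 3 panels the points with DSF lie below those of the same stimulus without it.

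Cells with DSF and either stimulus had lower H2-DMb2 and H2-Oa than unstimulated cells. With LPS and DSF 0 of the 10 genes were higher and 5 lower (0 and 5 also at an unadjusted p under 0.05 and by DESeq2, 71.4% of all genes called, 37.2% lower): H2-DMb2 at -2.04 ± 0.28, H2-Oa at -1.87 ± 0.45, H2-DMa at -1.86 ± 0.30, H2-DMb1 at -1.53 ± 0.32 and Ciita at -1.40 ± 0.49 (edgeR adjusted p = 0.030). Without unstimulated libraries 3 and 4 the call on Ciita was lost (-0.08, edgeR adjusted p = 0.13) and those on the other 4 genes were made, and it was also lost when unstimulated library 3 or 4 or any 1 library with LPS and DSF was left out (edgeR adjusted p up to 0.086). The size of the other falls turned on the pair: without the first and the second pair H2-DMb2 was at -2.49 and -1.43, H2-Oa at -2.52 and -0.73, H2-DMa at -2.34 and -1.19, and H2-DMb1 at -2.03 and -0.80. H2-Ob, at -0.09 ± 0.09, did not pass the test. With IL-4+anti-CD40 and DSF 3 genes were higher, H2-Aa (0.52 ± 0.13), H2-Eb1 (0.39 ± 0.12) and Cd74 (0.33 ± 0.13), and 3 lower, H2-Oa (-1.68 ± 0.45), H2-DMb2 (-0.91 ± 0.27) and H2-Ob (-0.24 ± 0.09), against 68.6% of all genes called, 33.3% higher and 35.2% lower. The direction of Ciita, H2-DMa and H2-DMb1 there turned on which pair of unstimulated libraries was used, with Ciita at -0.36 without the first pair and 1.65 without the second, H2-DMa at -1.0 and 0.14, and H2-DMb1 at -0.80 and 0.43. Cd74 was not called without the first pair (0.12), and the calls on Cd74 and H2-Ob were lost when any 1 library with IL-4+anti-CD40 and DSF was left out, that on Cd74 also without unstimulated library 1 or 2 and that on H2-Ob without 3 or 4. The call on H2-Eb1 was lost without unstimulated library 1 (edgeR adjusted p = 0.050) and without library 1 of IL-4+anti-CD40 with DSF (edgeR adjusted p = 0.065). Without the first and the second pair H2-Oa was at -2.32 and -0.53, H2-DMb2 at -1.36 and -0.30, H2-Aa at 0.31 and 0.73, H2-Eb1 at 0.19 and 0.59 and H2-Ob at -0.35 and -0.14. Without the first and without the second pair, 9 and 7 of the 10 genes were called with LPS and DSF (79.8% and 75.7% of all genes) and 8 and 10 under IL-4+anti-CD40 plus DSF (76.4% and 70.9%). These comparisons share their unstimulated libraries with those of the stimuli alone. With LPS and DSF, scaled to total counts, 0 of the 10 genes were higher and 10 lower, with the median of all genes at -0.43 in place of -0.02 and 29.7% in place of 47.9% of all calls higher. With IL-4+anti-CD40 and DSF, so scaled, 0 of the 10 genes were higher and 4 lower, with the median of all genes at -0.31 in place of 0.00 and 31.6% in place of 48.6% of all calls higher.

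Genes around the class II set were counted from lists. Among 14 regulators of class II transcription, including the RFX and NF-Y subunits that bind the X and Y boxes, 5 rose and 3 fell with LPS, and IL-4+anti-CD40 gave the same counts, with median log2 fold changes of 0.14 and -0.04 (all genes -0.05 and -0.04). That is 8 of 14 genes called with each, against 62.7% and 62.4% of all genes. With LPS the counts were 6 and 5 without the first pair of unstimulated libraries and 9 and 3 without the second, and 5 and 5, and 8 and 3, under IL-4+anti-CD40. Irf4, a factor of B cell activation, rose most with both stimuli (2.45 ± 0.25 and 1.89 ± 0.24), at 3.04 and 2.05 with LPS without the first and the second pair and 2.47 and 1.46 with IL-4+anti-CD40. Irf1, of the interferon response, rose with LPS in the first experiment (1.64 ± 0.25, and 1.27 and 2.22 without either pair), but had a log2 ratio of -0.27 in the second, where Irf4 was at 2.26. With DSF 5 rose and 6 fell under LPS, and 3 rose and 5 fell under IL-4+anti-CD40 (medians -0.08 and -0.06, all genes 0.00 and -0.02, with 71.0% and 61.7% of all genes called), or 3 rose and 9 fell and 3 rose and 8 fell when scaled to total counts. Prdm1, which encodes the Blimp-1 repressor of Ciita in plasma cells, rose from 23.3 ± 2.21 CPM to 71.6 ± 1.77 CPM (SD, n = 4) with LPS, and from 32.2 ± 6.09 CPM to 64.2 ± 2.73 CPM with IL-4+anti-CD40. Pax5, which keeps B cell identity, fell (-0.77 ± 0.04 and -1.13 ± 0.07), and of the RFX subunits Rfxap fell most with LPS (-0.78 ± 0.10) and Rfx5 with IL-4+anti-CD40 (-0.96 ± 0.07). Pax5 is also one of the B cell markers and Prdm1 one of the plasma cell markers. Within each stimulus of the first experiment the groups with DSF thus had higher Prdm1, lower Pax5 and, in the fits of 8 libraries, higher Ciita.

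Of 10 genes for endosomal processing, mostly proteases that cut antigen and the invariant chain, 2 rose and 6 fell with LPS, and IL-4+anti-CD40 gave 2 rises and 8 falls (median log2 fold changes -0.42 and -0.66, with 62.7% and 62.4% of all genes called). Without the first or the second pair of unstimulated libraries the counts were 3 and 5 or 4 and 6 with LPS, and 2 and 7 or 2 and 8 with IL-4+anti-CD40. With DSF 6 rose and 3 fell under LPS, and 6 rose and 1 fell under IL-4+anti-CD40 (medians 0.45 and 0.35, all genes 0.00 and -0.02), against 71.0% and 61.7% of all genes called, or 6 and 4, and 5 and 4, when scaled to total counts. The lysosomal protease Ctsd rose most with DSF, from 12.6 ± 0.739 CPM to 84.0 ± 7.04 CPM with LPS (6.74-fold) and from 23.0 ± 8.15 CPM to 108 ± 7.42 CPM with IL-4+anti-CD40 (4.54-fold). The proteases Ctsb (1.10 ± 0.05 and 1.14 ± 0.08), Lgmn (0.79 ± 0.04 and 0.93 ± 0.08) and Ctsl (0.81 ± 0.15 and 0.83 ± 0.14) rose as well. Ifi30, the lysosomal thiol reductase, rose with IL-4+anti-CD40 against unstimulated cells (1.63 ± 0.11, and 1.49 and 1.79 without either pair), and was at 1.74 in the second experiment. Sppl2a, which clears the membrane stub of Cd74, rose with LPS (1.15 ± 0.07, and 1.29 and 1.04 without either pair), but was at -0.07 in the second experiment.

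Turnover of surface class II is set by the ubiquitin ligase Marchf1, which marks it for degradation, and by Cd83, which counters Marchf1. Marchf1 was at 172 ± 75.7 CPM in unstimulated cells, 22.4 ± 3.21 CPM with LPS and 10.1 ± 2.27 CPM with IL-4+anti-CD40 (SD, n = 4), falls of 7.70-fold and 16.6-fold. Cd83 moved the other way, from 315 ± 153 CPM to 2339 ± 105 CPM and 2693 ± 263 CPM, rises of 7.44-fold and 8.90-fold. Without the first and the second pair of unstimulated libraries the log2 fold changes with LPS were -3.39 and -2.26 for Marchf1 and 3.71 and 2.39 for Cd83, and -4.50 and -3.39, and 3.95 and 2.62, under IL-4+anti-CD40. With DSF Cd83 fell (-0.55 ± 0.04 and -0.60 ± 0.07), Marchf1 did not pass the test in either, and the related ligase Marchf8 rose (1.66 ± 0.16 and 1.36 ± 0.19). Of these 3 genes, 1 rose and 2 fell with LPS, IL-4+anti-CD40 gave 1 of each, and 1 rose and 1 fell with DSF under each stimulus. Of all genes 62.7% and 62.4% were called with the stimuli, and 71.0% and 61.7% with DSF.

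Other class II loci of these mice were H2-Eb2, a class II beta chain gene, and H2-Ea-ps, the I-E alpha chain gene that is a pseudogene in C57BL/6 mice, so that H2-Eb1 has no partner chain there. H2-Ea-ps had 0 to 12 counts per library in the first experiment and was not tested. H2-Eb2 was at 130.3 ± 21.1 CPM without stimulus and fell with LPS (-0.69 ± 0.12, and -0.86 and -0.48 without either pair), and it fell with DSF under both stimuli (-0.24 ± 0.05 and -0.32 ± 0.06). H2-Eb1 did not pass the test with DSF.

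MHC class I presentation, which loads peptides from the cytosol, was set beside class II as the most similar gene set. With LPS 8 of its 14 genes rose and 0 fell (0 also at an unadjusted p under 0.05 and by DESeq2), whereas 0 of the 10 class II genes rose and 6 fell, with medians of 0.60 and -0.93 on the log2 scale (all genes -0.05). Of all genes 29.5% rose and 33.2% fell. The class I counts were 9 and 0 without the first pair of unstimulated libraries, and 12 and 1 without the second. Scaled to total counts they were 7 and 2, with 0 and 9 for the class II genes. Nlrc5, the class I counterpart of Ciita, rose (2.44 ± 0.28, and 2.03 and 3.08 without either pair), as did Tapbp (1.55 ± 0.14, 1.35 and 1.82) and Tap1 (1.40 ± 0.19, 1.11 and 1.80) of the peptide-loading complex. These rises were not seen in the second experiment, where LPS brought 0 of the 14 genes past 2-fold, with Nlrc5 at 0.13, Tapbp at -0.07 and Tap1 at -0.41 on the log2 scale. Against IL-4+anti-CD40, LPS cells of the first experiment had 9 class I genes higher and 3 lower. Of all genes 22.3% were higher and 17.3% lower. The changes were largest for Nlrc5 (1.94), Tap1 (1.87), Tapbp (1.72) and Psmb9 (1.68). In the second experiment the log2 ratio of Nlrc5 to unstimulated cells was 0.13 for LPS but 0.84 for IL-4+anti-CD40. Tap1 (-0.41 against -0.20) and Psmb9 (-0.69 against -0.41) were also lower for LPS there, and Tapbp was slightly higher (-0.07 against -0.18). With DSF, 6 class I genes of the first experiment rose and 4 fell under LPS. Under IL-4+anti-CD40, 6 rose and 5 fell. Scaled to total counts, these counts were 6 and 8, and 6 and 7. Of all genes 71.0% and 61.7% were called. H2-D1 rose by 1.11 ± 0.04 and 0.98 ± 0.08, and the immunoproteasome subunit Psmb10 fell by 0.93 and 0.90. The difference between the class I and class II sets was not tested.

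In the second experiment each condition was 1 library, so its ratios have no replicate check, and intervals (95%, exact binomial) cover counting error only. LPS and IL-4+anti-CD40 gave 0 of the 10 genes past 2-fold, against 18.5% and 24.4% of 14275 genes, and 4 and 5 past 1.5-fold, against 39.6% and 46.2%. Ciita was at 172 CPM without stimulus, 86.3 CPM with LPS (log2 ratio -0.99, interval -1.08 to -0.91) and 288 CPM with IL-4+anti-CD40 (0.74, 0.68 to 0.80). With LPS, H2-DMa, H2-DMb1, H2-DMb2 and H2-Oa had log2 ratios of -0.71, -0.55, -0.61 and -0.69, the same sign as in the first experiment, and the I-A and I-E chains and Cd74 lay between 0.00 and 0.21. In these libraries the macrophage markers summed to 43.0 CPM without stimulus and 32.8 CPM with LPS. With IL-4+anti-CD40 the log2 ratios of H2-DMa, H2-DMb1, H2-DMb2 and H2-Oa were 0.57, 0.84, 0.51 and -0.68. H2-Ob, from 752 to 379 CPM, was at -0.99. H2-Ab1 was at 0.74.

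With DSF under IL-4+anti-CD40, 4 of the 10 genes passed 2-fold, against 42.2% of all genes, and 6 passed 1.5-fold (63.6%). H2-DMb2 was at 575 CPM without DSF and 196 CPM with it (-1.55, interval -1.61 to -1.49). H2-DMb1 was at 189 and 77.7 CPM (-1.28), and H2-DMa at 311 and 139 CPM (-1.16). H2-Ob went the other way, from 379 to 893 CPM (1.24, interval 1.20 to 1.28). These 4 genes had the signs of the first experiment. Ciita did not: it was at 288 CPM without DSF and 176 CPM with it (-0.71, interval -0.78 to -0.64), whereas in the first experiment it rose (0.24 ± 0.07). H2-Ab1 was at -0.82 and H2-Aa at 0.06, so the I-A chains again differed. Under LPS, DSF gave 0 of the 10 genes past 2-fold, against 39.8% of all genes, and 1 past 1.5-fold (61.7%), with H2-Ob at 0.63, H2-DMb2 at -0.56, H2-Ab1 at -0.46, H2-Aa at 0.43 and Ciita at 0.32. H2-Oa, at 0.56 (interval 0.44 to 0.69), had the sign opposite to the first experiment (-0.23 ± 0.07). H2-DMa, which fell there, was at 0.07 (interval -0.02 to 0.15) and H2-DMb1 at 0.10 (interval -0.01 to 0.21). Scaled to total counts, H2-DMa and H2-DMb1 were at -0.24 and -0.21, so their direction in these libraries rested on the scaling. H2-DMb2, at -0.87 so scaled, was lower with DSF under LPS in both experiments under either scaling. Marker sums moved with DSF in these libraries: macrophage markers went from 38.2 to 72.8 CPM with IL-4+anti-CD40 and from 32.8 to 74.3 CPM with LPS, plasma cell markers from 324 to 531 and from 249 to 526 CPM, and erythroid markers from 27.1 to 64.3 and from 30 to 74.3 CPM. The B cell marker sum went from 6759 to 5264 and from 6259 to 5028 CPM. The dendritic cell marker sum went from 121 to 91.1 and from 117 to 109 CPM, lower with DSF, whereas it was higher in the first experiment. The part of these markers was not tested. Of the list genes, 6 of 14 regulators of class II transcription passed 2-fold with DSF under each stimulus, and of 10 endosomal genes 3 did under LPS and 4 under IL-4+anti-CD40.

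Ibrutinib was given at the same dose as DSF. It brought 0 of the 10 genes past 2-fold under either stimulus, against 5.28% and 3.92% of all genes, and also 0 past 1.5-fold, against 15.7% and 13.1%. H2-Ob had the highest ratio with both stimuli (0.44 with LPS, interval 0.41 to 0.48, and 0.52 with IL-4+anti-CD40, interval 0.48 to 0.56) and H2-Eb1 the lowest (-0.41 and -0.47). Under IL-4+anti-CD40, H2-DMb2 was at 0.11 with ibrutinib and -1.55 with DSF, and H2-DMa at 0.21 and -1.16. The intervals of these ratios do not overlap between the drugs, which compares these libraries and not the treatments.

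**Figure D5:**
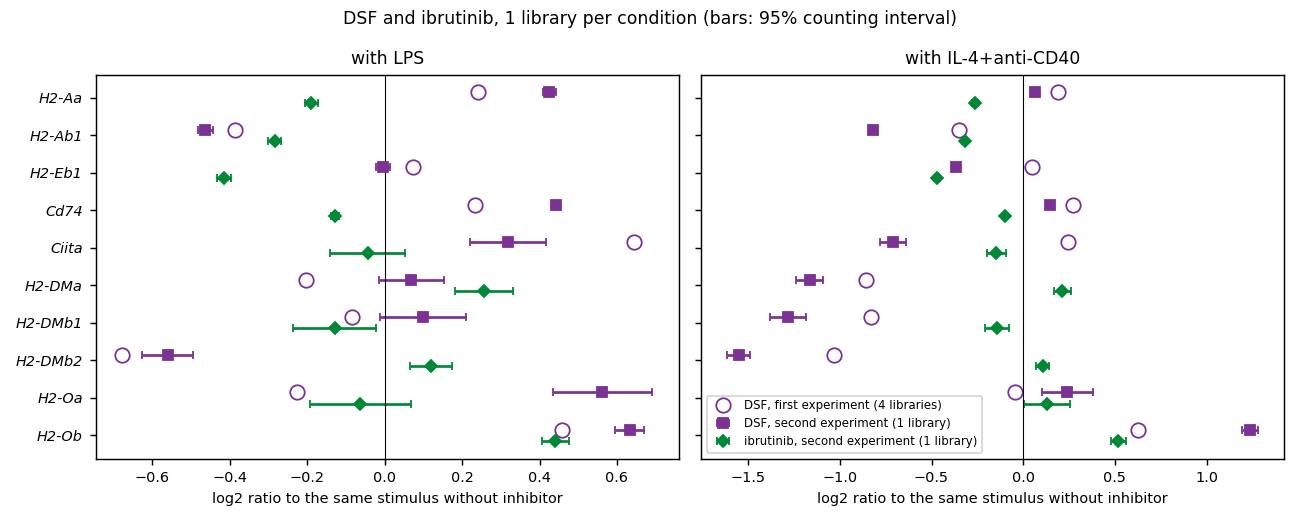
Log2 ratios of the 10 genes to the same stimulus without inhibitor (horizontal axes, each panel with its own range), for DSF (squares) and ibrutinib (diamonds) in the second experiment with 95% counting intervals, and for DSF in the first experiment (open circles, 4 against 4 libraries). Under IL-4+anti-CD40 the H2-DM genes lie left of 0 with DSF in both experiments, and Ciita lies on opposite sides of 0.

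Genes whose pattern over the 5 groups of the first experiment was most like that of 3 class II genes were named by the root mean square difference of their centred group means of log2 CPM, over the 14426 genes whose mean reached 10 counts. For Ciita these were Chil3 (0.20), Dexi (0.20), which shares exon bases with it, and Pparg (0.21). For Cd74 they were Smurf1 (0.03), Oraov1 (0.03) and Pgm1 (0.04), and for H2-Aa Gm9392 (0.03), Zfp428 (0.04) and AC126457.1 (0.05). None of the other 9 class II genes was among the 3 nearest of Ciita, Cd74 or H2-Aa.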

How the data were processed

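Libraries from splenic B cells of C57BL6 mice were trimmed by the authors with Fastp, aligned to mm10 with HISAT2 2.0.5 and counted per gene with featureCounts 1.5.0-p3, per the submitters' processing notes and the study's methods, and the annotation release is not given in the sources used here. The deposited counts are raw read counts per gene, and the deposited FPKM values were computed by the authors from gene length and counts. Group labels come from the sample titles. The 10 genes and all gene lists were chosen with earlier results of these data known, and the 10 genes were taken by name.

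Each comparison of the first experiment was fitted on its 8 libraries with the quasi-likelihood test of edgeR 4.0.16 (TMM scaling, filterByExpr, robust) and the interaction on 16. P-values were adjusted by Benjamini-Hochberg over all genes tested, with a threshold of 0.05. CPM values were scaled by TMM over the 20 libraries of the first experiment, and separately over the 7 of the second. DESeq2 1.42.0 was an alternative (R 4.3.3). The second experiment was described by log2 ratios (2 added as prior count, genes averaging at least 10 counts) with 95% exact binomial intervals for counting error only. Scripts were tested on simulated data. Genes of the lists were named by a rule of at most 4 per list and comparison, those past the threshold with the largest change, and all 10 class II genes were named. Marchf1 with DSF and H2-Ea-ps, outside this rule, were named after their values were seen. The values of 1 gene of the lists are not reported here. Sequences are from RefSeq.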

Additional observations from a re-analysis of the deposited data

Results flagged for a closer look

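In 50 groups of 4 libraries (10 genes in 5 groups) the gap between the most extreme library and the next, divided by the range, was compared with Dixon's 95% critical value. It was above it in 4 groups: for H2-Aa with LPS, where the lowest library stood apart (0.904), for H2-Oa under IL-4+anti-CD40 plus DSF, where the highest did (0.874), and for H2-Ob under LPS plus DSF (highest, 0.864) and under IL-4+anti-CD40 plus DSF (lowest, 0.839). Chance gives such a gap in about 1 in 20 groups.

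The effect of DSF differed between the stimuli for 4 genes by the interaction term (edgeR adjusted p = 0.0012, 6.71e-06, 6.48e-07 and 0.0090 in the order given next). On the log2 scale the effect under LPS minus that under IL-4+anti-CD40 was 0.40 for Ciita, 0.65 for H2-DMa, 0.74 for H2-DMb1 and 0.35 for H2-DMb2, and none of these passed the test when the unstimulated libraries entered the fit.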

How the results depend on the processing

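Of the calls on the 10 genes, those of the direct comparison of LPS with IL-4+anti-CD40 moved least: 138 of 140 values under alternatives had the same direction and the same side of the threshold, against 129 and 135 of 140 for DSF under LPS and under IL-4+anti-CD40. In the comparisons with unstimulated cells 127 to 144 of 160 did, and in the interaction 204 of 220. The alternatives to the edgeR fit were DESeq2, scaling to total counts, other filters on low counts, all 20 libraries in 1 fit, the replicate number as a block, leaving out each replicate and, with unstimulated cells, leaving out either pair of them. The order of the genes by FPKM was the same under its alternatives. Where a value reversed or a count moved, the cause was not tested.

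Without unstimulated libraries 1 and 2, chosen after seeing the data, 10 genes were called with LPS (H2-Ab1 at -0.19), 5 with IL-4+anti-CD40 (Cd74 -0.15, Ciita -0.60, H2-DMa -0.14, H2-DMb2 -0.33) and 9 with LPS and DSF (H2-Aa -0.10, Cd74 -0.20), and Ciita was at -0.36 under IL-4+anti-CD40 plus DSF, all against unstimulated cells. Without libraries 3 and 4, H2-Aa, H2-Eb1 and Cd74 were at 0.15, 0.16 and 0.061 with LPS, H2-Eb1 at 0.17 with LPS and DSF, and H2-DMa and H2-DMb1 at 0.14 and 0.43 under IL-4+anti-CD40 plus DSF, and 10 genes were called with IL-4+anti-CD40 with or without DSF.

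Scaled to total counts, against unstimulated cells H2-Ab1 was at -0.16 with LPS, Cd74, Ciita and H2-DMb2 at -0.10, -0.058 and -0.032 with IL-4+anti-CD40, and H2-Aa and Cd74 at -0.29 and -0.39 with LPS and DSF, where 10 genes were called. So scaled, H2-Eb1 was at -0.14 with DSF under LPS and -0.10 under IL-4+anti-CD40, H2-Oa at -0.051 between the stimuli, and the interaction at -0.012 for H2-Aa and -0.037 for H2-Eb1. With all 20 libraries in 1 fit, 5 genes were called with IL-4+anti-CD40 (Cd74 at -0.0075), 4 with DSF under LPS and 0 in the interaction (912 of all genes, H2-Aa -0.029, H2-Eb1 -0.054), and H2-Oa was at 0.017 with DSF under IL-4+anti-CD40. DESeq2 and a minimum of 10 counts in every library each gave 5 called genes with IL-4+anti-CD40, DESeq2 gave -0.011 for H2-Eb1 in the interaction, and with all genes with any count Cd74 was at -0.059 with LPS and DSF.

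Leaving out 1 replicate at a time gave 3 to 5 called genes with IL-4+anti-CD40, 3 to 6 under IL-4+anti-CD40 plus DSF and 4 to 6 under LPS plus DSF, against unstimulated cells. Of all genes 8342 to 9068, 9358 to 10136 and 9865 to 10579 were then called, in the same order. Log2 fold changes that changed sign ranged from -0.030 to 0.18 for H2-Ab1 and -0.13 to 0.023 for H2-Eb1 with LPS, from -0.038 to 0.12 for Cd74, -0.21 to 0.44 for Ciita and -0.065 to 0.29 for H2-DMb2 with IL-4+anti-CD40, from -0.097 to 0.087 for Cd74 and -0.13 to 0.040 for H2-Eb1 under LPS plus DSF, and from -0.013 to 0.053 for H2-Eb1 in the interaction.

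With the replicate number as a block, 6, 3, 8, 8, 9, 4 and 5 genes were called in the 7 comparisons of groups. Their order is LPS, IL-4+anti-CD40, DSF in LPS, DSF in IL-4+anti-CD40, LPS against IL-4+anti-CD40, LPS with DSF and IL-4+anti-CD40 with DSF. In the interaction 4 were called. Without the block, 62.7%, 62.4%, 71.0%, 61.7%, 39.6%, 71.4% and 68.6% of all genes were called in this order, and 15.0% in the interaction. The shares of all genes with the block are not given here. Same-numbered libraries had correlations of deviations from -0.07 to 0.20, and 3 of 40 were over 0.1, so the numbers were not taken to pair the libraries.

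In the second experiment, scaling to total counts or a mean of at least 50 counts gave 1 gene past 2-fold under LPS and 1 under IL-4+anti-CD40. With TMM and a mean of at least 10 counts, 18.5% and 24.4% of all genes passed 2-fold. A fold of 1.5 gave 4 with LPS, 5 with IL-4+anti-CD40 and 1 with DSF under LPS, against 39.6%, 46.2% and 61.7% of all genes. Small ratios there turned on the scaling. Scaled to total counts, H2-Aa, H2-Eb1 and Cd74 were at -0.06, -0.06 and -0.14 with LPS. With DSF under LPS, H2-DMa and H2-DMb1 were then at -0.24 and -0.21 and Ciita at 0.01. With DSF under IL-4+anti-CD40, H2-Aa, Cd74 and H2-Oa were at -0.18, -0.10 and -0.003. H2-Oa, with the fewest counts of the 10 genes, had the widest counting intervals in every comparison there.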
